A study of Mus musculus with 6 samples.

Results

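IL-33, its receptor ST2 and the cytokines and receptors of the IL-6 family were followed through 10 genes in fibro-adipogenic progenitors (FAPs) exposed to the complement protein C1q. The genes were Il33, Il1rl1, Il1rap, Il6, Il11, Lif, Il6st, Osmr, Lifr and Socs3. They were taken by gene symbol from a table of 16671 genes, and all 10 were found. The filter on low values removed 0 genes of that table. FAPs are the stromal cells of the space between muscle fibres, and C1q is the sensor protein of the classical complement pathway. The libraries fell into 2 groups of 3, FAPs given C1q at 100 µg/ml and FAPs given vehicle as the control, both sorted by flow cytometry from the hind limb muscles of wild type mice aged 4 to 5 months. How long the cells were exposed is not given in the sources used here. Whether replicates are separate mice or cultures is not stated in the labels, so p-values below reflect the spread between these libraries alone, and that spread may be technical.

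IL-33 is an alarmin, a cytokine of the IL-1 family that is stored in the nucleus of stromal and epithelial cells and released when they are damaged. It binds ST2, the product of Il1rl1, which then recruits the co-receptor encoded by Il1rap, and the complex signals through MYD88 and the IRAK kinases. In skeletal muscle, FAPs are known as a source of IL-33, which acts on regulatory T cells that bear ST2. IL-6, IL-11 and LIF use the shared receptor chain gp130, the product of Il6st, with or without partner chains such as those of Osmr and Lifr, and signal through JAK kinases and STAT3. STAT3 induces Socs3, whose product binds gp130 and its JAK kinases and closes the loop.

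The start sites of the genes that moved most are shown first. Il33 and Il1rl1 each have 2 start sites with a window, and the read counts do not say which start site was used. Both windows of Il1rl1 lie inside the annotated gene, which begins at 40404864. The sequences are RefSeq windows of 300 bases in GRCm38.p6, from 250 bases before a start site to 50 after it, printed 5′ to 3′ on the strand of the gene. All 10 genes matched the RefSeq windows by gene ID, with 14 windows in all. Il6 is shown beside Il33, Il1rl1 and Il6st, the 3 genes that moved most, because its window holds 2 of the motifs searched. Capitals mark those motifs, and a window in lower case throughout holds none.
Il33 start site 1, chr19:29924863-29925162, plus strand: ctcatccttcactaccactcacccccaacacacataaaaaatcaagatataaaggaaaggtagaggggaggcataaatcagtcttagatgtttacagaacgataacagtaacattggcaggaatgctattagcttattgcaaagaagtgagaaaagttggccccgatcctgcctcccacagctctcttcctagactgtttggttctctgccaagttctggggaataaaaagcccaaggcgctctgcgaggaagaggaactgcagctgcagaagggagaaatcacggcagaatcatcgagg
Il33 start site 2, chr19:29945540-29945839, plus strand: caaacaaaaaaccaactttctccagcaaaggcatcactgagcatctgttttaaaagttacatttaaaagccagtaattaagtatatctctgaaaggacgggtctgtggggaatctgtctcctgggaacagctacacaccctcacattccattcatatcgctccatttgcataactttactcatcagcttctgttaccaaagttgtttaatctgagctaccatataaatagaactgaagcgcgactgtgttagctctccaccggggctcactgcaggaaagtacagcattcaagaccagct
Il1rl1 start site 1, chr1:40429320-40429619, plus strand: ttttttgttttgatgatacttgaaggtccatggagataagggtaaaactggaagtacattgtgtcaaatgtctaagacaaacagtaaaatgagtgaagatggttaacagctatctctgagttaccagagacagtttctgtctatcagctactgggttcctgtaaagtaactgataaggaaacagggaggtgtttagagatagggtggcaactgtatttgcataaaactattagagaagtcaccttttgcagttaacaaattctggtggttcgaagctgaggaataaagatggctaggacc
Il1rl1 start site 2, chr1:40439379-40439678, plus strand: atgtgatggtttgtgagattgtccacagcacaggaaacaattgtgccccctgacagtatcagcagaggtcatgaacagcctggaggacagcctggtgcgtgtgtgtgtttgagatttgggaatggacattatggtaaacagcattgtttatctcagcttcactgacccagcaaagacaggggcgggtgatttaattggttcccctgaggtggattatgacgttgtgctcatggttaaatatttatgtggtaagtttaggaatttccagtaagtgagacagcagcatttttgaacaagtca
Il6st, chr13:112463820-112464119, plus strand: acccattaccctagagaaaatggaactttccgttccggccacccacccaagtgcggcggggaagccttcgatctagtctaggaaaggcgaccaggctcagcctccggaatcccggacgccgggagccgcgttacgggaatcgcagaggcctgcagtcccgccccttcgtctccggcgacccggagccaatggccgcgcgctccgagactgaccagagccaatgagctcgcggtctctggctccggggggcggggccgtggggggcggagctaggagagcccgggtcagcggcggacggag
Il6, chr5:30012864-30013163, plus strand: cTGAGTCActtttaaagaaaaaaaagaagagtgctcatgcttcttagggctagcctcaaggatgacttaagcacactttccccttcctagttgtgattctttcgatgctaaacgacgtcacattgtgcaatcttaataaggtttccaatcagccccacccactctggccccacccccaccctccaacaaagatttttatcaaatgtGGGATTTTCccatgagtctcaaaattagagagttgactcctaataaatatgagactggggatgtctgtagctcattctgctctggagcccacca

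The motifs searched, on both strands, were TTCNNNGAA for STAT factors, GGGNNTTTC for NF-kB and TGANTCA for AP-1, and no matches overlapped one another. Over all 32851 RefSeq windows of the same length, 8.30% held the STAT motif, 4.36% the NF-kB motif and 7.81% the AP-1 motif. Of the 14 windows, 1 held the STAT motif, that of Socs3, as TTCTTAGAA. That window begins at a start site 970 bases inside the outer end of the gene, so it is not the region before the gene's first base. The windows of Il1rl1, Lifr and Osmr share this limit, as do the second window of Il33 and 1 of the 2 of Il11. Il1rl1 begins at 40404864 and Lifr at 7090610, while their first windows begin at 40429320 and 7129322. Osmr, on the minus strand, has its outer end at 6874968, and its window ends at 6874563. Il11, also on the minus strand, has its outer end at 4782907, and its window with the AP-1 motif ends at 4778391. Il33 begins at 29925113, and its second window at 29945540. These windows do not cover the regions before the first bases of those genes. The window of Il1rap and the other window of Il11 begin outside the gene, but their start sites lie inside it. The NF-kB motif was found in 1 window, that of Il6, as GGGATTTTC starting 44 bases before the start site. The AP-1 motif was found in 4 windows, those of Il6, Lif and Osmr and 1 of the 2 of Il11. The windows of Il33, Il1rl1, Il1rap, Il6st and Lifr held none of the 3. A match is a description of letters, not of a bound site.

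With C1q, FAPs carried more Il33 mRNA, less Il1rl1 mRNA and more mRNA of the receptor chains Il6st, Osmr and Lifr, while the ligands Il6, Il11 and Lif stayed low and did not pass the test. Of the 10 genes, 4 were called higher and 2 lower (limma-trend on log2 of the normalised read count plus 1, Benjamini-Hochberg adjusted p below 0.05 over all genes). Among the called genes, only Il1rl1 and Il6st kept their call under all 16 alternative settings given below. Il33, Osmr, Lifr and Socs3 each lost theirs in some. Over all 16671 genes, 38.3% were called, 19.7% higher and 18.7% lower, so a call in itself was common in this comparison. The median log2 fold change was 0.47 over the 10 genes and 0.03 over all genes. The 2 groups of libraries did not overlap at 7 of the 10 genes, against 52.1% of all genes. Of those 7, Il33, Il6st, Osmr and Lifr were higher with C1q (26.8% of all genes) and Il1rl1, Il11 and Socs3 lower (25.4% of all genes). The limma-trend fold changes refer to log2(value + 1), in which the added 1 shrinks the ratio of 2 low values.

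**Figure D1:**
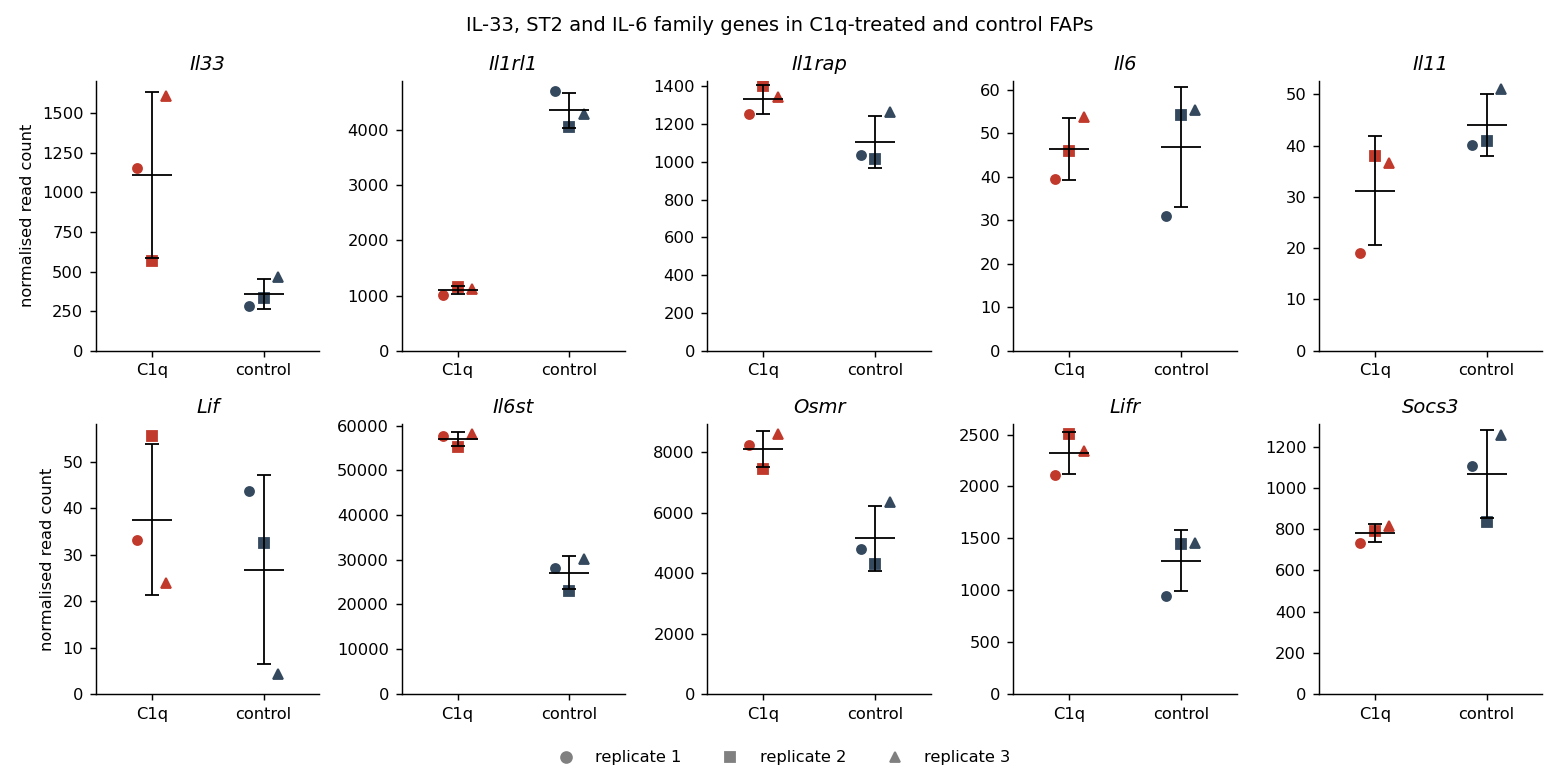
Normalised read count of each of the 10 genes in every library, C1q left and control right, on linear axes from 0; symbols mark replicate numbers, the long dash the mean and the bars the SD of 3 libraries. Il1rl1 stands between 1015 and 1165 with C1q and between 4068 and 4708 in controls, while the axes of Il6, Il11 and Lif reach only about 60.

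Il33 (Entrez gene 77125, chromosome 19, 29925113 to 29960718) stood at a normalised read count of 1155, 564 and 1611 in C1q replicates 1, 2 and 3, against 280.3, 330.5 and 463 in control replicates 1, 2 and 3. Every C1q library was above every control library, but C1q replicate 2 was much nearer to the controls than the other C1q libraries were. The means were 1109.9 ± 525 with C1q and 358 ± 94.6 in controls (SD, n = 3 each, as throughout). Il33 rose 2.90-fold in limma-trend (log2 fold change 1.53 ± 0.37 SE, adjusted p 0.0134). Without C1q replicate 1 the adjusted p was 0.0505, at a log2 fold change of 1.44. The reads behind these values numbered 579 to 2156 with C1q and 109 to 481 in controls.

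Il1rl1 encodes ST2 (Entrez gene 17082, chromosome 1, 40404864 to 40465418). Its normalised read count was 1015, 1165 and 1124 in the C1q libraries, against 4708, 4068 and 4302 in the controls. The C1q libraries lay close together and far below the lowest control. The means were 1101 ± 77.2 with C1q and 4359 ± 324 in controls, which made Il1rl1 3.96-fold lower with C1q (log2 fold change -1.98 ± 0.08 SE, adjusted p 7.90e-05 in limma-trend). Only 2 of the 16671 genes had a lower p. Leaving out any 1 library kept the log2 fold change between -2.03 and -1.93.

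The gene makes both the membrane receptor and a soluble form of ST2 that binds IL-33 without signalling. GENCODE lists 5 transcripts, of which those of 5302 and 5053 bases run to the far end of the gene, near 40465415. Transcripts of 2661 and 1216 bases stop earlier, at 40448148 and 40446723. The counts are per gene, so the reads of the long and the short transcripts cannot be told apart. The 2 start sites printed above lie 10059 bases apart, and in mouse and rat the one nearer the coding exons is known to be used in fibroblasts and the far one in blood cells. Those of Il33 lie 20677 bases apart.

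Il1rap, the co-receptor that ST2 shares with the IL-1 receptor (Entrez gene 16180, chromosome 16, 26581509 to 26730128), stood at 1249.9, 1399 and 1342 normalised reads with C1q, against 1035, 1015 and 1263 in controls. The groups overlapped, since control replicate 3 was above C1q replicate 1. The means were 1330.1 ± 75.0 with C1q and 1104 ± 137 in controls, with a log2 fold change of 0.27 (95% interval 0.04 to 0.50) and an adjusted p of 0.0624 in limma-trend. A replicate block in the same test gave an adjusted p of 0.0464. Removal of the dependence of fold change on transcript length, called the length trend below, gave 0.491 at a log2 fold change of 0.09. Without control replicate 3 the adjusted p was 0.00618 at a log2 fold change of 0.37. Exons of the non-coding gene Gm20319 overlap Il1rap on the opposite strand, and whether counting used the strand was not given in the sources used here.

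The level of Il33 per kilobase of its longest transcript was set against that of Il1rl1 in the same library. That ratio was 2.37, 1.01 and 2.99 in C1q replicates 1, 2 and 3, against 0.124, 0.169 and 0.224 in control replicates 1, 2 and 3. Il33 mRNA was thus at or above Il1rl1 mRNA per kilobase of longest transcript in every C1q library and well below it in every control. The length used for Il1rl1 was 5302 bases, and the counts do not say which transcript was read. A shorter length, such as that of the transcript of 2661 bases, would lower the ratio in every library. The order in the C1q libraries therefore depends on the length chosen, most of all in replicate 2 at 1.01. The ratio of Il1rap to Il1rl1 was 1.42 ± 0.023 with C1q and 0.298 ± 0.043 in controls. These ratios use the same values as the fold changes above and are given as a description.

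**Figure D2:**
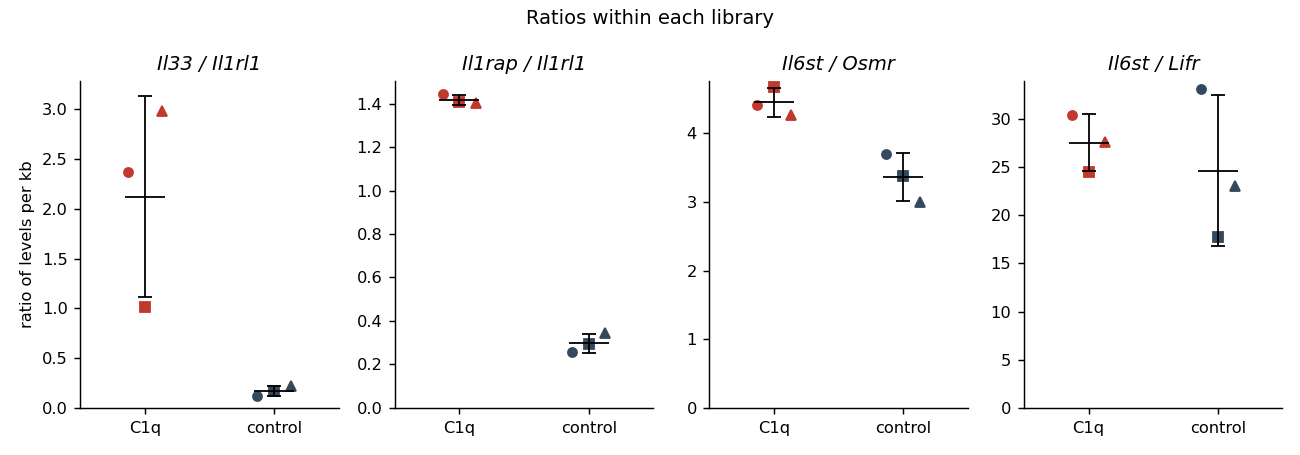
Ratios of normalised read counts per kilobase of longest transcript within each library, C1q left and control right, with the mean and SD of 3 libraries; symbols mark replicates 1 (circle), 2 (square) and 3 (triangle). The Il33 to Il1rl1 ratio lies between 1.01 and 2.99 with C1q and between 0.124 and 0.224 in controls, and the Il6st to Lifr ratio overlaps between the groups.

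Of the genes followed, the IL-6 family ligands Il6, Il11 and Lif were close to the limit of what these libraries resolve. Il6 (Entrez gene 16193, chromosome 5, 30013114 to 30019975) stood at 39.5, 45.8 and 53.8 normalised reads with C1q, against 30.9, 54.1 and 55.3 in controls. The groups overlapped, and the log2 fold change was 0.02 with a 95% interval of -0.64 to 0.69 (adjusted p 0.957 in limma-trend). Without control replicate 1 the log2 fold change was -0.24, and without C1q replicate 3 it was -0.09. Its reads numbered 56, 47 and 72 in the C1q libraries and 53, 70 and 13 in the controls.

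Il11, which encodes a cytokine linked to fibroblast activation (Entrez gene 16156, chromosome 7, 4772373 to 4782907), had 19.0, 38.0 and 36.6 normalised reads with C1q, against 40.2, 40.9 and 51.0 in controls. Every C1q library was below every control, by a small margin for C1q replicates 2 and 3. The log2 fold change of -0.54 had a 95% interval of -1.27 to 0.19 and an adjusted p of 0.218 in limma-trend. Control replicate 3 rested on 12 reads, and without C1q replicate 1 the log2 fold change was -0.23.

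Lif, which encodes leukaemia inhibitory factor (Entrez gene 16878, chromosome 11, 4257568 to 4272514), had 33.1, 55.6 and 23.9 normalised reads with C1q, against 43.7, 32.4 and 4.25 in controls. The groups overlapped, and the lowest value was a single read in control replicate 3, the shallowest library. The log2 fold change was 0.87 with a 95% interval of -0.95 to 2.70 (adjusted p 0.418 in limma-trend), and -0.09 without control replicate 3. On the recovered reads it was 0.18 with edgeR on TMM and 0.32 with DESeq2 (adjusted p 0.793 and 0.692).

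Il6st, which encodes gp130, was the most abundant of the 10 genes (Entrez gene 16195, chromosome 13, 112464070 to 112506860). It stood at 57582, 55219 and 58138 normalised reads with C1q, against 28112, 23009 and 30229.5 in controls. The C1q libraries agreed closely and were all far above the controls. The means were 56979.5 ± 1550.1 with C1q and 27117 ± 3712 in controls, a 2.11-fold rise (log2 fold change 1.08 ± 0.13 SE, adjusted p 7.51e-04 in limma-trend). With the length trend removed, the log2 fold change was 0.57 with an adjusted p of 0.0113. Its longest annotated transcript has 8678 bases.

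Osmr, the oncostatin M receptor chain that pairs with gp130 (Entrez gene 18414, chromosome 15, 6813568 to 6874968), stood at 8255, 7467 and 8623 normalised reads with C1q, against 4804, 4310 and 6364 in controls. All C1q libraries were above all controls. The means were 8115 ± 590.2 with C1q and 5159 ± 1072 in controls, and the call was higher (log2 fold change 0.67 ± 0.14 SE, adjusted p 0.00834 in limma-trend). With the length trend removed the log2 fold change was 0.38, with an adjusted p of 0.0704, and with the replicate block as well Osmr was called (0.0184).

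Lifr, the LIF receptor chain that also pairs with gp130 (Entrez gene 16880, chromosome 15, 7090610 to 7197489), had 2106, 2509 and 2341 normalised reads with C1q, against 945, 1445 and 1458 in controls. Here too the groups did not overlap. The means were 2319 ± 202 with C1q and 1283 ± 293 in controls, a 1.84-fold rise (log2 fold change 0.88 ± 0.17 SE, adjusted p 0.00539 in limma-trend). With the length trend removed the log2 fold change was 0.32 with an adjusted p of 0.205, so the call was lost. Its longest transcript, of 9655 bases, is the longest among the 10 genes.

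The balance between the gp130 chain and its partners was also read per kilobase within each library. The ratio of Il6st to Osmr was 4.41, 4.68 and 4.27 in the C1q libraries, against 3.70, 3.38 and 3.01 in the controls. That of Il6st to Lifr was 27.5 ± 2.97 with C1q and 24.6 ± 7.82 in controls, and overlapped between the groups.

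Socs3, the feedback inhibitor of gp130 signalling (Entrez gene 12702, chromosome 11, 117966079 to 117970336), stood at 733, 792 and 817 normalised reads with C1q, against 1108, 835 and 1258 in controls. The groups did not overlap, but the lowest control was only just above the highest C1q library. The means were 781 ± 43.1 with C1q and 1067 ± 215 in controls, with a log2 fold change of -0.43 ± 0.14 (SE). The adjusted p of 0.0490 in limma-trend lay at the threshold. It was between 0.0931 and 0.143 when control replicate 1 or 3 or any 1 of the C1q replicates was left out, 0.00379 without control replicate 2, and 0.133 with the length trend removed.

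**Figure D3:**
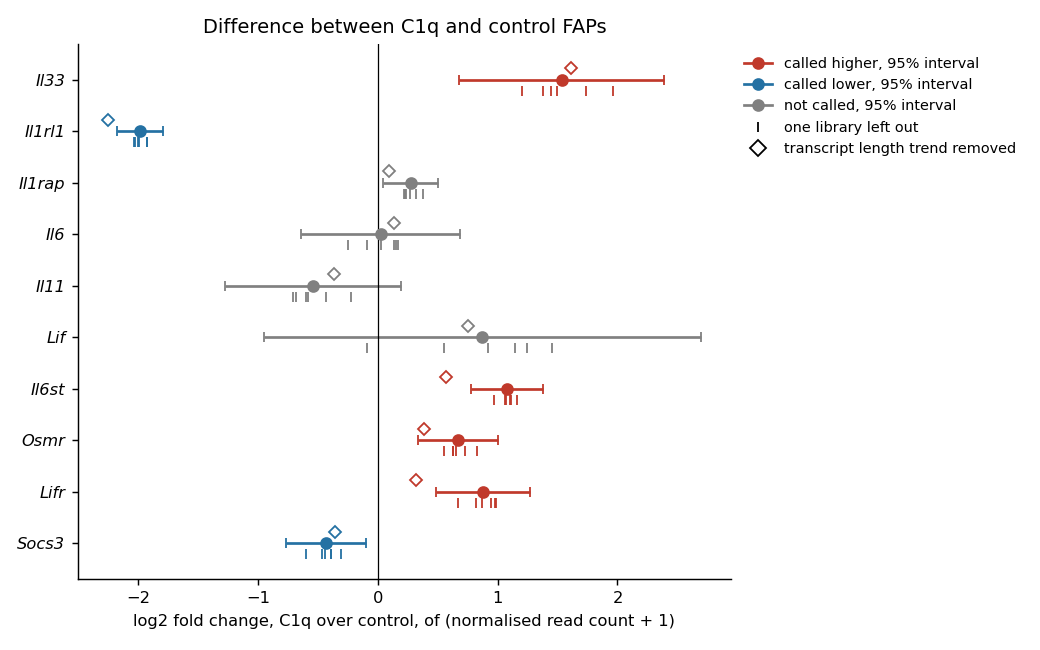
Log2 fold change of C1q over control for each of the 10 genes, from limma-trend on log2(normalised read count + 1), with 95% intervals as bars; ticks below each point leave out one library and diamonds above it have the transcript length trend removed. Il1rl1 lies at -1.98 with a narrow interval, Lif at 0.87 with an interval that spans 0, and the diamonds of Il6st, Osmr and Lifr sit nearer to 0 than their points.

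Levels of different genes were compared per kilobase of the longest annotated transcript, which places a gene read mainly from a shorter transcript too low. With C1q the order was Il6st (6566 ± 179 normalised reads per kilobase), Osmr (1478 ± 107), Il33 (436 ± 206), Socs3, Il1rap, Lifr, Il1rl1 (208 ± 14.6), Il6 (19.8 ± 3.07), Il11 and Lif (9.32 ± 4.04). In controls it was Il6st (3125 ± 428), Osmr (939.6 ± 195), Il1rl1 (822 ± 61.1), Socs3, Il1rap, Il33 (141 ± 37.2), Lifr, Il11, Il6 and Lif (6.66 ± 5.05). Il1rl1 therefore held rank 7 with C1q and rank 3 in controls, and Il33 rank 3 with C1q and rank 6 in controls. With C1q, the ranges of neighbours in this order overlapped between Il33 and Socs3, Socs3 and Il1rap, Lifr and Il1rl1, Il6 and Il11, and Il11 and Lif. In controls they overlapped between Osmr and Il1rl1, Il33 and Lifr, and Il11 and Il6.

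**Figure D4:**
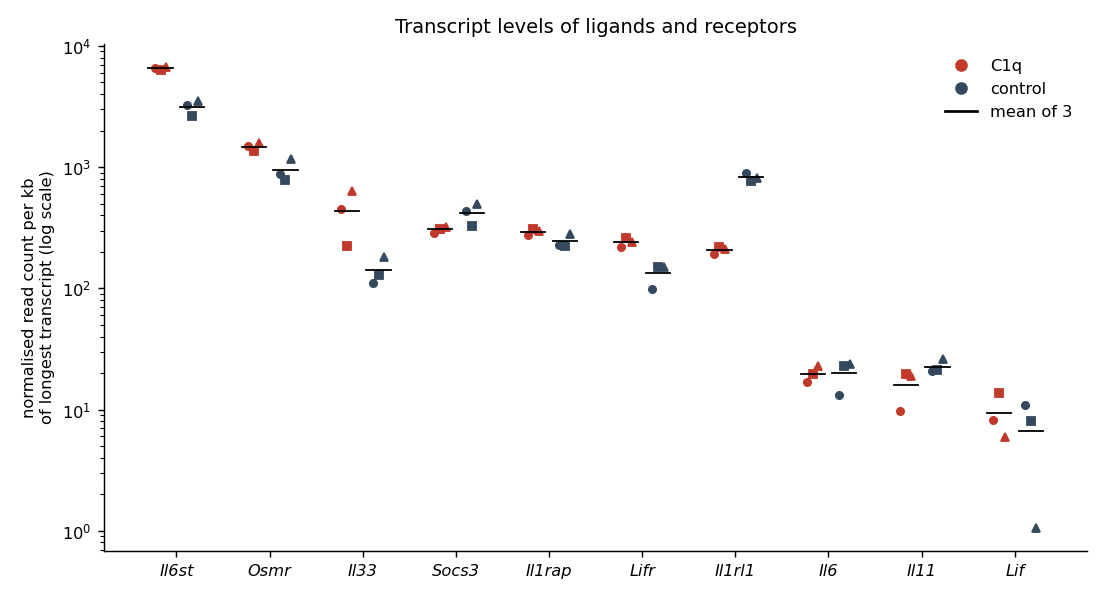
Normalised read count per kilobase of longest transcript on a log scale for the 10 genes, ordered by their mean with C1q, with C1q libraries left and control libraries right and a dash for the mean of 3; symbols mark replicates 1 (circle), 2 (square) and 3 (triangle). Receptors and Il33 lie above 90 in every library, and Il6, Il11 and Lif lie below 30.

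Among other ligands and receptors of the IL-6 family, 5 were higher with C1q out of 8 measured and 14 listed, against 19.7% of all genes, with a median log2 fold change of 0.49 (all genes, 0.03). In limma-trend 0 were lower, 0 at an unadjusted p below 0.05 and 0 with edgeR or DESeq2. Il11ra1, the receptor chain for IL-11, stood at 8008 ± 253 normalised reads with C1q and 6222 ± 981 in controls (adjusted p 0.0392 in limma-trend). Ctf1, which encodes the gp130 ligand cardiotrophin 1, was at 175 ± 19.4 with C1q and 121 ± 6.25 in controls (log2 fold change 0.52, adjusted p 0.0198, and 0.87 with the length trend removed). Il27ra, the IL-27 receptor chain, stood at 153 ± 17.9 with C1q and 95.2 ± 24.4 in controls (adjusted p 0.0380). Il31ra, which pairs with the Osmr chain to bind IL-31, was called higher from few reads, 40, 15 and 26 with C1q against 8, 2 and 1 in controls (adjusted p 0.00640). Il6ra, the chain that binds IL-6 itself, was at 156 ± 22.6 with C1q and 144 ± 20.9 in controls and was not called (log2 fold change 0.11, adjusted p 0.640). With the length trend removed its log2 fold change was -0.40 (adjusted p 0.128). The 5 calls became 2 without C1q replicate 1 or 3 and 3 without C1q replicate 2 or control replicate 1. Il11ra1 and Il27ra were not called without any 1 of those libraries (adjusted p 0.0507 to 0.124), nor was Ctf1 without C1q replicate 1 (0.0765), C1q replicate 3 (0.0888) or control replicate 2 (0.0505).

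Of 29 transducers and inhibitors of JAK-STAT signalling, 14 were higher and 5 lower, against 19.7% and 18.7% of all genes (median 0.26). Only 7 were higher once the length trend was removed, and 3 were lower without C1q replicate 1, C1q replicate 2 or control replicate 3. Gab1, a docking protein downstream of gp130, rose to 1375 ± 30.3 normalised reads with C1q, against 659 ± 89.8 in controls, and the transcription factor gene Stat5b to 1273 ± 60.6 with C1q, against 852 ± 25.9 in controls (adjusted p 3.97e-04 and 6.70e-04 in limma-trend). Socs5, of the same family as Socs3, was higher at 2644 ± 38.0 with C1q and 1965 ± 77.5 in controls, while Pias4, which encodes an inhibitor of activated STAT proteins, was lower at 406 ± 27.1 with C1q and 642.5 ± 26.3 in controls. With the length trend removed, the log2 fold change of Stat5b was 0.32 in place of 0.58 and that of Socs5 0.23 in place of 0.43, and both were still called. Stat3 stood at 8316 ± 285 with C1q and 7786 ± 403 in controls and was not called (log2 fold change 0.10, adjusted p 0.328). With the length trend removed it was called lower, at -0.24 with an adjusted p of 0.0321, and its exons overlap those of Stat5a on the opposite strand. Jak1 was at 10831 ± 822 with C1q and 9206 ± 500.1 in controls, with an adjusted p of 0.0634, 0.0741 with edgeR on TMM, 0.0415 with DESeq2, 0.0379 with a replicate block and 0.0490 without control replicate 2. Its log2 fold change was 0.23, and 0.0067 with an adjusted p of 0.960 once the length trend was removed.

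Of 21 genes known to respond to IL-6 family cytokines or STAT3, 2 were higher and 10 lower, against 19.7% and 18.7% of all genes (median -0.33). Without C1q replicate 1 only 1 was higher. Timp1, an inhibitor of matrix metalloproteinases, fell to 5201 ± 62.5 normalised reads with C1q, against 11208 ± 273 in controls (log2 fold change -1.11, adjusted p 1.38e-04 in limma-trend, and -0.55 with the length trend removed). The transcription factor gene Cebpb fell to 2358 ± 148 with C1q, against 4492 ± 307 in controls, and Fos to 143 ± 11.4 with C1q, against 428 ± 79.4 in controls (adjusted p 2.65e-04 and 3.81e-04). Steap4, a metalloreductase gene, was among the 2 that rose, to 7555 ± 826 with C1q, against 2875 ± 412 in controls. These genes also respond to many other stimuli, so the list is not a readout of gp130 alone. This list and the others were chosen with earlier results of these data known. Their shares against those of all genes are therefore a description only.

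On the IL-1 side, 10 of 18 listed ligands, receptors and decoys were measured, and 3 were higher, against 19.7% of all genes (median 0.53). In limma-trend 0 were lower, 0 at an unadjusted p below 0.05 and 0 with edgeR or DESeq2. Il1rl2, the IL-36 receptor chain, rose to 763 ± 16.9 with C1q, against 443 ± 69.1 in controls (adjusted p 0.00161 in limma-trend). Il1r1, the signalling receptor of IL-1, stood at 16682 ± 773 with C1q and 9936 ± 3259 in controls (adjusted p 0.0168). Il1r2, its decoy receptor, stood at 106 ± 11.0 with C1q and 66.4 ± 8.75 in controls (adjusted p 0.0201). These receptors for IL-1 and IL-36 were thus higher with C1q, whereas Il1rl1 was lower. Without C1q replicate 2 the count was 1. Il1r1 was not called without C1q replicate 2 (adjusted p 0.0509), C1q replicate 3 (0.0579) or control replicate 1 (0.0543), nor with the length trend removed (0.100), unless the replicate block was added (0.0390). Il1r2 was not called without C1q replicate 1 (0.0716), C1q replicate 2 (0.0844), control replicate 1 (0.0548) or control replicate 2 (0.0535).

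Of 21 transducers from MYD88 to TRAF6, 4 were higher and 5 lower, both near the share over all genes (median 0.02), and 1 was higher with the length trend removed. Myd88, the adaptor of the IL-33 receptor complex, was lower at 846 ± 11.5 with C1q and 1096 ± 63.0 in controls (adjusted p 0.00455 in limma-trend). Irak3, which restrains IRAK signalling, was higher at 1238 ± 95.6 with C1q and 748 ± 58.2 in controls (adjusted p 8.07e-04). Ikbkg, the regulatory subunit of the IKK complex, was higher at 1123 ± 46.1 with C1q and 766 ± 25.4 in controls, but its log2 fold change was 0.14 with an adjusted p of 0.156 once the length trend was removed. Ube2n, a ubiquitin-conjugating enzyme for TRAF6, was lower at 1467 ± 27.8 with C1q and 2079 ± 170 in controls (adjusted p 0.00189), and Tifa, a TRAF6-binding adaptor, was lower at 212 ± 13.1 with C1q and 354 ± 37.5 in controls (adjusted p 0.00213). Irak4 was not called (adjusted p 0.182). Among 9 measured proteases that cut IL-33 or shed receptors 1 was called, Adam10, where 19.7% of all genes were called higher. It stood at 2643 ± 60.1 with C1q and 1743 ± 286 in controls (adjusted p 0.00536). Without control replicate 1 there were 2 higher, and without control replicate 2 there was 1 lower. Exons on the opposite strand overlap Il11ra1, Ctf1, Il27ra, Il6ra, Gab1, Jak1, Cebpb, Myd88, Irak3, Irak4, Ikbkg and Tifa, so their reads may include those of the overlapping gene.

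**Figure D5:**
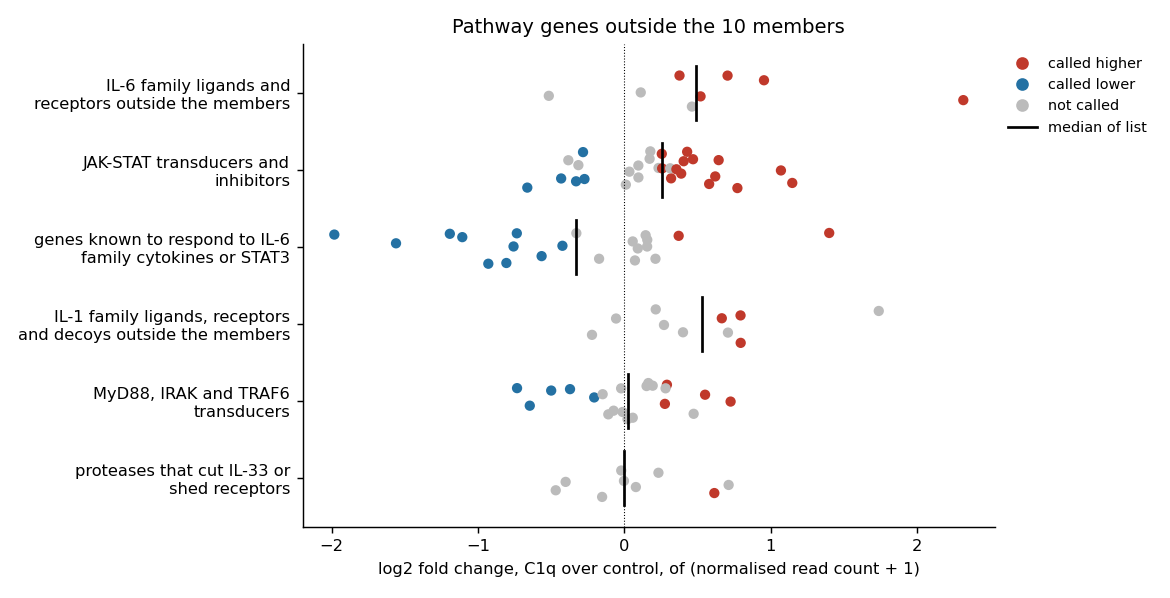
Log2 fold change of C1q over control for the measured genes of 6 pathway lists, one point per gene with vertical jitter, red where called higher, blue where called lower and grey where not called; the black line is the median of the list. The medians run from -0.33 for genes that respond to IL-6 family cytokines or STAT3 to 0.53 for the IL-1 family genes outside the 10 members.

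The genes whose pattern over the 6 libraries was most like that of 2 of the members were found among 10896 genes with a mean of at least 100. For Il33 they were Serpinb1a, Wdr66 and 2610507I01Rik (Pearson r 0.993, 0.991 and 0.989 on log2 values), and for Il6 they were Pth1r, Apol9a and Klf15 (0.996, 0.984 and 0.973). Over 6 libraries in 2 groups these values are a description only.

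The libraries held 24046020 to 31929119 reads on genes with C1q and 5379209 to 38861152 in controls, of which control replicate 3 was the shallowest. The labels name the cells as FAPs, although their text on RNA extraction names muscle stem cells. All 8 FAP markers were measured, with summed levels of 327382 to 425611 with C1q and 193792 to 230932 in controls. Col1a1 made up most of that sum, at 228338 to 330202 with C1q and 144213 to 166383 in controls. Of the 8 markers, 6 were higher with C1q, Pdgfra among them. Ly6a and Cd34 were not called (log2 fold change 0.15 and 0.20 in limma-trend). Muscle-lineage markers were also present, summing to 818 to 1048 with C1q and 1556 to 5651 in controls, with 5 of 6 lower with C1q. In the controls that sum was 5651, 2738 and 1556 in replicates 1, 2 and 3, while Il1rl1 stood at 4708, 4068 and 4302 and Il33 at 280.3, 330.5 and 463. In bulk samples, fewer cells of a type and less RNA per cell cannot be told apart, and the part of these cells in the results was not tested. Tenocyte markers summed to 1992 to 4584 with C1q and 692 to 1105 in controls (2 of 4 higher, 1 lower), Schwann cell markers to 199 to 223 with C1q and 76.5 to 133 in controls (2 of 4 higher), and pericyte and smooth muscle markers to 2082 to 2783 with C1q and 1365 to 1868 in controls (1 of 5 higher). By library, the tenocyte sum was 2288.5, 1992 and 4584 in C1q replicates 1, 2 and 3. In control replicates 1, 2 and 3 it was 692, 807 and 1105. Il33, at 1155, 564 and 1611 with C1q and 280.3, 330.5 and 463 in controls, had the same order of replicates within each group. Il1rl1 did not. With C1q the largest part of the tenocyte sum was Tnmd, at 1706, 1437 and 2412 in replicates 1, 2 and 3. Scx, the marker called lower, stood at 126, 143 and 199 in those libraries. In control replicates 1, 2 and 3 Scx stood at 413, 358 and 302. Scx had the order of Il33 in neither group, Kera in controls only, and Tnmd and Mkx in both. The part of tenocytes, Schwann cells, pericytes and smooth muscle in the results was not tested either.

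Of the immune cells that bear ST2, markers were close to 0. The 4 measured markers of mast cells, ILC2 and eosinophils summed to 18.3 to 28.3 with C1q and 17.0 to 39.4 in controls, with 0 called, and of 6 T cell markers only Il2ra was measured, at 14.8 to 47.1 with C1q and 7.72 to 21.3 in controls. Il2ra was not called in limma-trend but was called higher with DESeq2. Il1rl1 stood at 1015 or more in every library. The part of immune cells that bear ST2 in that level was not tested. Only 4 of 7 listed markers of mast cells, ILC2 and eosinophils and 1 of 6 of T cells were measured. Of 10 macrophage and leukocyte markers 9 were measured, with sums of 209.97 to 648 with C1q and 177 to 297 in controls and 0 called, and C1qa had reads in replicate 2 of each group only. Endothelial markers summed to 603 to 1297 with C1q and 655 to 1307 in controls, with 0 of 6 called. Most of that sum was Tek, at 480 to 1175 with C1q and 506 to 963 in controls. Pecam1 was at 4.93 to 13.6 with C1q and at 0.583, 94.97 and 0 in control replicates 1, 2 and 3, so control replicate 2 stood apart. Without that replicate the same 6 members were called. For the mast cell, macrophage and endothelial lists, 0 markers passed in limma-trend, 0 at an unadjusted p below 0.05 and 0 with edgeR or DESeq2.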

How the data were processed

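Each library used 10 ng of total RNA and a SMART-Seq low-input kit, per the labels' protocols. The submitters' processing notes name Trimmomatic, HISAT2, featureCounts, DESeq2 and mm10. Tool versions, annotation and strandedness were not given in the sources used here. The deposited values are a normalised signal, gene reads scaled by a size factor of each library, although the headers speak of counts. All values (100%) were whole multiples of what 1 read is worth, within 0.001 of a read. That worth was 0.583 to 0.975 units in 5 libraries and 4.25 in control replicate 3. No gene had a mean below 1.00. Symbols came from RefSeq GRCm38.p6 (16077 of 16671 IDs) and transcript lengths and exon overlaps from GENCODE vM21 (89.6% of IDs).

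Testing used limma-trend (limma 3.58.1, R 4.3.3) on log2(value + 1), with no block. The filter, a mean of 1 or more, removed 0 genes. Alternatives were edgeR 4.0.16 (TMM or library totals) and DESeq2 1.42.0 on the recovered reads, pseudocounts of 0.5 and 5, a mean of at least 10 or no filter, the replicate block, a loess trend on transcript length removed (span 0.5, genes with a mean of at least 20), and each library left out. The length trend together with the block was added after seeing the data. edgeR with TMM called 6881 genes and the main test 6389. The main, length-trend, edgeR and DESeq2 fits were run on simulated counts with known fold changes, and the outcome is not reported here. Those counts held no length trend and no pairing, so they cannot test how well such a trend is removed. The members, lists and rule for named genes were chosen with earlier results of these data known. The rule named the members, the 4 called genes of lowest p in each list, and Il6ra, Il11ra1, Il1r1, Stat3, Jak1, Myd88 and Irak4, of which 1 list gene is not reported here. Replicates differed by more than sampling noise in every pair (chi-square per degree of freedom 17.6 to 42.9). Deviations of same-numbered libraries from their group means correlated at 0.123, 0.175 and 0.132. Those of differently numbered libraries correlated at -0.132 to 0.00485. These correlations are weak, and they do not settle whether the numbers pair the libraries. The labels do not state a pairing, so the main test left it out and the replicate block was an alternative.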

Additional observations from a re-analysis of the deposited data

How the results depend on the processing

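Il1rl1 and Il6st kept their direction and call under all 16 alternatives, with log2 fold changes of -2.25 to -1.93 and 0.57 to 1.16. With the transcript length trend removed, 2 members were called higher and 1 lower, in place of 4 and 2, Osmr stood at 0.38, Lifr at 0.32 and Socs3 at -0.35, and 2182 genes were called higher over the whole table. With that trend and the replicate block together, Osmr was called at 0.38, Lifr at 0.32 and Socs3 at -0.35 were not, and 3 members were called higher and 1 lower. With the replicate block alone, Il1rap was called at 0.27 (adjusted p 0.0464), as it was with edgeR on TMM (0.27) or library totals (0.28) and with DESeq2 (0.29), and the block changed no other call of a member. Of the named list genes, Jak1 was gained with the block. Leaving out 1 library gave 1 or 2 members called lower, and log2 fold changes of 1.20 to 1.96 for Il33, 0.22 to 0.37 for Il1rap and -0.60 to -0.30 for Socs3. The length trend also moved the higher calls among JAK-STAT genes (14) to 7, or 9 with the block, among MYD88 to TRAF6 genes (4) to 1 with or without the block, and among IL-1 family genes (3) to 5 with the block. Over the left-out libraries the higher calls were 2 to 5 for the IL-6 family list (main 5), 10 to 15 for JAK-STAT genes, 1 to 3 for STAT3-responsive genes (main 2), 1 to 3 for the IL-1 family, 3 to 5 for MYD88 to TRAF6 genes and 1 to 2 for proteases (main 1). The lower calls there were 0 for both ligand and receptor lists, 3 to 4 for JAK-STAT genes (main 5), 8 to 10 for STAT3-responsive genes, 4 to 5 for MYD88 to TRAF6 genes and 0 to 1 for proteases (main 0). Stat3 was called lower at -0.24 with the length trend removed, with or without the block, against 0.10. Il6 ranged from -0.24 to 0.17 and Lif from -0.09 to 1.46, with no call in any alternative. The cause of these changes was not tested. A read in control replicate 3 is worth 4.25 units, a coarse step at the levels of Il6, Il11 and Lif.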
